A study of Mus musculus with 2 samples.

Results

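Oligodendrocyte precursor cells of the mouse optic nerve were described from single-cell RNA counts of Nf1-OPG mice. They numbered 588 of 19834 kept cells, with 570 in the vancomycin library and 18 in the control library. A kept cell had at least 500 UMIs (unique molecular identifiers, which count captured RNA molecules), at least 200 detected genes and at most 20% of its UMIs from mitochondrially encoded genes. A precursor cell had at least 3 UMIs of Pdgfra, Cspg4 and C1ql1 together and at most 1 UMI of Gpr17. It also had at most 3 UMIs of the fibroblast genes Dcn, Col1a1 and Col1a2 together, at most 3 of the myelin genes Mog and Mag together, and at most 1 of the microglial gene Csf1r.

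The vancomycin group received the antibiotic vancomycin from 6 to 12 weeks of age. The control group carries the treatment label control, and PBS is the alternative that the series design names. Both groups had the genotype Nf1flox/neo; GFAP-Cre, in which a neomycin cassette in exon 31 disrupts 1 Nf1 allele in all cells and Cre, driven by the GFAP promoter, deletes the floxed allele in neuroglial progenitors. No mice with intact Nf1 were analysed here, so every precursor cell below comes from an Nf1-mutant animal. Per the labels' protocols, optic nerves of 10 mice were pooled at 12 weeks, and debris and myelin were removed before the 10x Genomics 5′ version 2 libraries were made. Each group is therefore 1 library. There was no replicate spread and no test between the groups, and every interval is a 95% interval for counting error only. The protocols also describe meningeal dura, but the tissue label is optic nerve for each library. The titles of the libraries differ in form: that of the control carries the tags FMC and ON, which are not interpreted here, and that of vancomycin does not. The sex of the mice is not stated.

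Oligodendrocyte precursor cells are the dividing glia that give rise to the myelinating oligodendrocytes of the nerve. They depend on the growth factor receptor encoded by Pdgfra and carry the proteoglycan NG2, encoded by Cspg4. On the way to a myelinating cell they pass through a committed stage marked by the receptor Gpr17, lose Pdgfra and Cspg4, and then switch on myelin genes such as Mbp and Mog. Neurofibromin, the product of Nf1, is a negative regulator of RAS, and optic glioma models in the mouse delete it in this lineage and in astrocytes. In mouse models of demyelination, precursor cells exposed to interferon are known to carry the antigen presentation genes of the MHC (major histocompatibility complex).

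Deposited barcodes numbered 16596 with vancomycin (144451114 UMIs) and 4272 in the control (25609899 UMIs). The filters left 15726 vancomycin cells at a median of 6970.0 UMIs and 4108 control cells at 4870.5. The 570 vancomycin precursor cells had a median of 6498.5 UMIs (586 to 41000) and 4175770 in all. The 18 control precursor cells had a median of 9976.5 UMIs (775 to 14029) and 173211 in all. Of 91 barcode sequences kept in both libraries, 0 were precursor cells in both. Per the file headers, Cell Ranger 7.2.0 made the vancomycin counts and version 6.0.1 the control counts, so software version and treatment cannot be told apart. RNA of other cells was found in precursor cells: 227 of 570 with vancomycin and 2 of 18 in the control had at least 3 UMIs of the T cell, macrophage, B and plasma cell, endothelial or pericyte markers, and 203 and 2 had them of the B and plasma cell list.

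Interferon-induced genes differed together among the precursor cells of the vancomycin library, and immediate early and cholesterol genes between the libraries. Promoter sequences of such genes are shown here for that reason. They come from RefSeq (GRCm38.p6, the assembly of mm10), which held 29 of the 35 interferon-induced genes listed, and the 250 bases before the start were searched. The interferon-stimulated response element, searched on both strands as TTTC, any 2 bases and TTTC again, stood in 13 of these 29 windows (44.8%), against 936 of all 27025 (3.46%). A shorter stretch around the matches is given for 7 of the genes, read 5′ to 3′ on the strand of the gene, with matches on either strand in capitals. Overlapping matches run together.
Ifit3, chr19:34583348-34583441, plus strand: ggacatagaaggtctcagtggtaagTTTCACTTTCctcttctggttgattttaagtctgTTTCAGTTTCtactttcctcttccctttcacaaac
Ifit1, chr19:34640760-34640838, plus strand: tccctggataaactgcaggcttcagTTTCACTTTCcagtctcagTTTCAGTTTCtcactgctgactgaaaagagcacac
Isg15, chr4:156200850-156200921, minus strand: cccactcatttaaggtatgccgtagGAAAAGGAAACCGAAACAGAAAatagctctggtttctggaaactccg
Bst2, chr8:71537562-71537627, minus strand: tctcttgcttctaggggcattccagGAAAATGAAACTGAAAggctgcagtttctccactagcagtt
Irgm1, chr11:48871421-48871475, minus strand: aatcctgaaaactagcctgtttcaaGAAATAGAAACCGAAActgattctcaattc
Igtp, chr11:58199497-58199555, plus strand: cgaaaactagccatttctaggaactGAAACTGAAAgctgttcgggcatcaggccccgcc
Gbp3, chr3:142559974-142560039, plus strand: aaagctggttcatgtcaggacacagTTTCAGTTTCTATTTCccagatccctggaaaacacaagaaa

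For the immediate early genes the half-site of the cyclic AMP response element, searched as TGACG on both strands, stood in 14 of 22 windows (63.6%), against 5347 of 27025 (19.8%). It also stood in 9 of 16 windows of MHC class I genes (56.25%) and in 6 of 15 of cholesterol genes (40%). For the cholesterol genes the sterol regulatory element, searched as TCACNCCAC on both strands, stood in 1 of 15 windows (6.67%), that of Hmgcs1, against 331 of 27025 (1.22%), 1 of 19 windows of other precursor genes (5.26%) and 1 of 17 of lineage factors (5.88%). Capitals mark the half-site in Fos and the sterol element in Hmgcs1, whose stretch also holds a half-site that is left in lower case. A match describes letters in a window and is not a measured site.
Fos, chr12:85473736-85473853, plus strand: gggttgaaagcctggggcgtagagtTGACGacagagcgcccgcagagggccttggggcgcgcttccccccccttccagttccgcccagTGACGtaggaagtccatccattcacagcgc
Hmgcs1, chr13:119690189-119690247, plus strand: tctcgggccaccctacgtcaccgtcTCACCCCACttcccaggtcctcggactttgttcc

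The label was checked first against genes that the rule did not use. Lhfpl3, a membrane protein gene of precursor cells, and Ptprz1, a receptor phosphatase of glial progenitors, were both detected in 559 of 570 vancomycin cells (98.1%, interval 96.6 to 99.0) and in 17 of 18 control cells. The lineage factors Olig1, Olig2 and Sox10 were all detected in 516 of 570 vancomycin cells (90.5%) and in 17 of 18 control cells. None of the 3 was detected in 13 vancomycin cells (2.28%) and 1 control cell. That control cell had 775 UMIs in all, had the lowest allowed sum of 3 rule UMIs and lacked Lhfpl3 and Ptprz1 as well, so 17 of the 18 control cells had these markers.

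The values that chose the cells are given as a description. The sum of Pdgfra, Cspg4 and C1ql1 had a median of 14 UMIs (3 to 46) in vancomycin cells and 25 (3 to 119) in control cells. At the threshold, the 20 vancomycin cells with a sum of exactly 3 had Lhfpl3 in 70% and Ptprz1 in 75%, and the 28 cells just outside it, with a sum of 2, had them in 46.4% and 42.9%. Of 1189 vancomycin cells with at least 3 of these UMIs, 467 lay above the Gpr17 limit, 106 above the fibroblast limit, 88 above the Mog and Mag limit and 30 above the Csf1r limit. Of 91 such control cells, 31 lay above the Gpr17 limit, 39 above the fibroblast limit, 0 above the Mog and Mag limit and 6 above the Csf1r limit. The Gpr17 limit thus removed the largest number in the vancomycin library and the fibroblast limit in the control library.

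Precursor cells made up 3.62% of kept cells in the vancomycin library (570 of 15726, interval 3.34 to 3.93) and 0.438% in the control library (18 of 4108, 0.260 to 0.692). The share depends on what else each library holds. Mature oligodendrocytes, called from Mog and Mag, numbered 3972 in the vancomycin library and 0 of 4108 in the control, which by a floor of 3 counts allows a share of up to 0.0730%. Without them the vancomycin share of precursor cells was 4.85%. Per astrocyte, called from Aqp4 and Gja1, the vancomycin library held 4.87 precursor cells (interval 3.99 to 6.00) and the control library 0.409 (0.223 to 0.723). Per microglial cell there were 0.398 and 0.0177, and per T cell 0.147 and 0.0099, with vancomycin given first in both. Per committed cell, called from at least 2 Gpr17 UMIs, the ratio was 1.38 with vancomycin (interval 1.21 to 1.57). In the control library it was 0.581 (0.306 to 1.07), and this was the smallest of these 4 gaps. Of 414 committed vancomycin cells 407 met the precursor rule apart from its Gpr17 limit, as did 31 of 31 in the control. The ratio thus mostly splits cells of that rule by their Gpr17 count. Tissue collection, myelin removal and cell recovery move with the library, and their part in these shares was not tested. Depth moves with it too: precursor cells had medians of 6498.5 UMIs with vancomycin and 9976.5 in the control. The limits count raw UMIs, so a deeper cell passes 1 Gpr17 UMI more easily, and the ratio per committed cell was not matched for depth. Shares of kept cells at matched depth are given among the alternatives at the end.

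Against mature oligodendrocytes of the same vancomycin library, precursor cells had most of the listed precursor and extracellular matrix genes at higher levels and the myelin genes at lower levels. Levels are UMIs summed over the cells of a class and scaled to a common total (CPM), and log2 ratios were taken after adding 10 CPM to both sides. A gene was measured with at least 50 UMIs in all and at least 100 CPM in the higher class, and was counted from a log2 ratio of 1 in size. A gene that reached 100 CPM in a single one of the groups compared could thus be counted in that direction alone. This limit holds for all counts of measured genes below, and for the shares over all measured genes. Among 2581 measured genes, 568 (22%) stood higher by this limit in precursor cells and 531 (20.6%) stood lower. Scaling by TMM moves the log2 ratios of this contrast by about -0.65, and 403 genes are then higher and 799 lower. Of 25 listed precursor genes that the rule did not use, 24 were measured and 23 were at least 2-fold higher, and all 18 myelin genes that the rule did not use were at least 2-fold lower.

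Ptprz1 stood at 2001 CPM in precursor cells and 2.29 CPM in mature oligodendrocytes, a log2 ratio of 7.35. Among matrix genes, 15 of 19 measured were higher and 2 lower. Cspg5, a chondroitin sulphate proteoglycan, had 3245 CPM in precursor cells and 16.7 CPM in mature cells, and Vcan, which encodes versican, had 767 and 1.32 CPM. Of the 14 measured channel and receptor genes 7 were higher and 2 lower, and the higher ones included the glutamate receptor subunits Gria2 (294 CPM in precursor cells, 4.26 CPM in mature cells) and Gria3 (225 and 0.584 CPM), the metabotropic receptor Grm5 (424 and 0.974 CPM) and the potassium channel Kcnd2 (858 and 2.55 CPM). The inward rectifier Kcnj10 was lower, with 73.3 CPM in precursor cells and 197 CPM in mature cells.

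Genes of the RAS and MAPK pathway and genes that respond to it were part of the same contrast: 6 of 11 measured were higher and 3 lower. The 3 lower genes were Mapk3, Etv1 and Ptpn11, and the higher ones included Ccnd1, Etv4 and Spry1. Ccnd1, a cyclin of early cell division, had 1620.3 CPM in precursor cells and 12.5 CPM in mature cells. Etv4, an ETS factor induced by this pathway, had 165 and 0.519 CPM, and Spry1, a feedback inhibitor, had 286 and 37.2 CPM. In the other direction stood genes of myelin and of the mature cell. Apod, a lipid carrier gene, had 30.7 CPM in precursor cells and 8164 CPM in mature cells, and the myelin gene Mal 13.2 and 4626 CPM. St18, a transcription factor of late stages, had 8.38 CPM in precursor cells and 574 CPM in mature cells, and Myrf, which drives myelin genes, had 9.10 and 248 CPM. Sox10, shared by the whole lineage, had 597 and 446 CPM, a log2 ratio of 0.41.

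**Figure D1:**
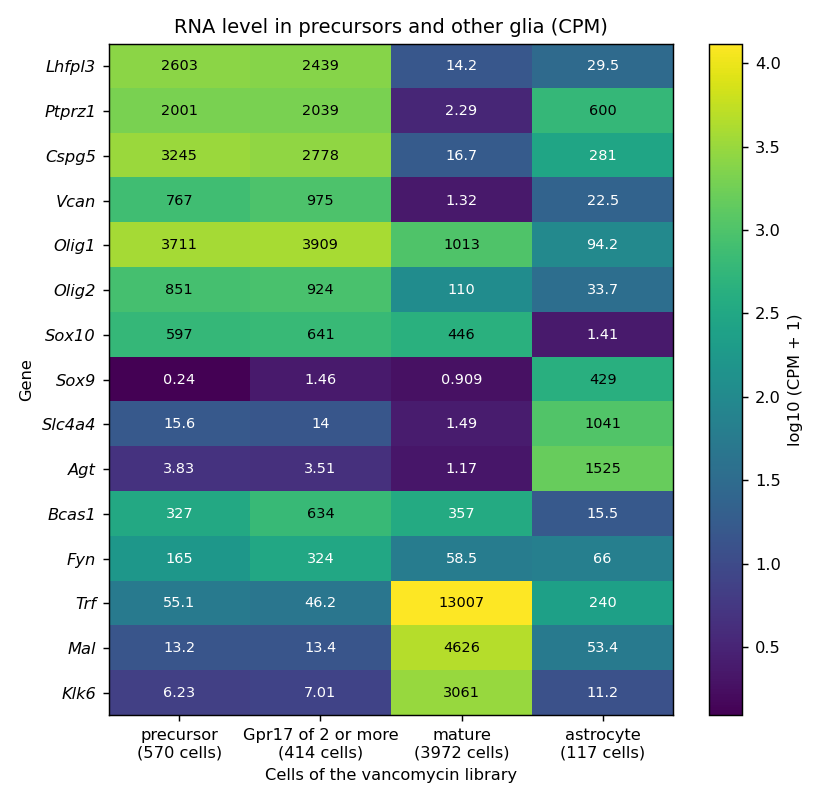
RNA level of 15 genes (rows) in 4 classes of cells of the vancomycin library (columns), with the CPM printed in each field and the colour giving log10 of CPM + 1. Precursor and committed cells have similar colours, Mal stands at 4626 CPM in mature cells, and Sox10 at 1.41 CPM and Sox9 at 429 CPM set astrocytes apart.

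Astrocytes, the other macroglia of the nerve, gave 434 higher (17.4%) and 377 lower (15.1%) of 2489 measured genes. Lhfpl3 had 2603 CPM in precursor cells and 29.5 CPM in astrocytes. Neu4, a sialidase gene, had 497 CPM in precursor cells and 0 UMIs in 117 astrocytes. Sox9, a glial factor that astrocytes keep, had 0.24 CPM and 429 CPM in the same order, and Agt, which encodes angiotensinogen, 3.83 and 1525 CPM. The Notch target Hes1 (15.6 CPM in precursor cells, 128 CPM in astrocytes) and the receptor Fgfr3 (9.10 and 191 CPM) were also lower in precursor cells. Against all other kept cells of the vancomycin library, in which 23.1% of 2428 measured genes were higher and 17.4% lower, the highest ratios among genes outside the rule belonged to Cspg5 (3245 CPM in precursor cells, 97.3 CPM in the rest), Lhfpl3 (2603 and 90.1 CPM), Ptprz1 (2001 and 71.1 CPM) and Kcnd2 (858 and 28.9 CPM). These cells were chosen on the same RNA, so the counts describe the class and test nothing.

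The limit of 1 Gpr17 UMI cuts through a continuous range of cells. In the vancomycin library 247 of the 570 precursor cells (43.3%) had the 1 allowed UMI, and in the control 10 of 18 (55.6%). Without the limit the rule took 977 vancomycin cells (6.21% of kept cells, 5.84 to 6.60) and 49 control cells (1.19%, 0.884 to 1.57). Gpr17 then stood at 299 CPM with vancomycin and 296 CPM in the control, and their ratio was 1.01 (0.854 to 1.20). At least 2 Gpr17 UMIs were seen in 41.7% of vancomycin cells (38.5 to 44.8) at a median of 6819 UMIs, and in 63.3% of control cells (48.3 to 76.6) at 10620.0 UMIs. With each cell thinned to 2000 UMIs, at least 1 Gpr17 UMI was found in 33% of 958 vancomycin cells (30 to 36.1) and 37.5% of 48 control cells (24.0 to 52.6), after 19 and 1 shallower cells were left out. The intervals overlap, so a different position along this range was not detectable at this depth.

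Cells on either side of the limit were close in the rest of their RNA. Precursor cells against committed cells gave 13 higher genes (0.62%) and 12 lower genes (0.572%) of 2098 measured, and none of the 25 other precursor genes was among them. All 13 higher genes and 9 of the 12 lower ones were immunoglobulin genes, whose RNA comes from B and plasma cells, and 2 of the lower ones, Hbb-bs and Hbb-bt, were haemoglobin genes. Just short of 2-fold lay Fyn, a kinase that acts early in myelination (165 CPM in precursor cells, 324 CPM in committed cells), and Bcas1, a marker of cells starting to myelinate (327 and 634 CPM). In the other direction Ccnd1 had 1620.3 and 945 CPM.

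Larger differences lay at higher Gpr17 counts. Along bins of 0, 1, 2 to 3, 4 to 9, 10 to 19 and at least 20 Gpr17 UMIs, which held 323, 247, 236, 141, 16 and 14 vancomycin cells, Pdgfra stood at 904, 1038, 1064, 1125, 811 and 162 CPM. Cspg5 stood at 3137, 3384, 3043, 2889, 1930 and 368 CPM. Bcas1 ran the other way with 315, 342, 403, 627, 1363 and 2635 CPM, and Fyn with 169, 159, 172, 207, 601 and 2374 CPM. Bmp4, a ligand made by committed cells, stood at 10.2, 9.86, 14.5, 28.8, 203 and 592 CPM. Pdgfra and Cspg5 thus had their lowest values in the 14 cells of the last bin. Olig1 stood at 3469, 4023, 4037, 4080, 3426 and 2374 CPM.

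**Figure D2:**
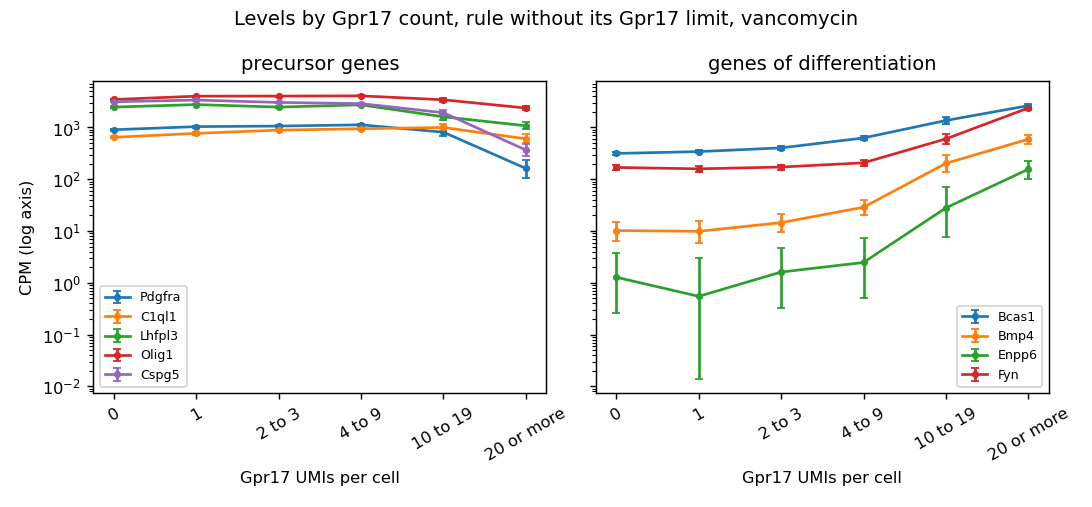
RNA level (CPM, log axis) of 5 precursor genes and 4 genes of differentiation in vancomycin cells grouped by their Gpr17 UMIs, with the limit of the rule on Gpr17 removed and 95% Poisson intervals for counting error. Pdgfra stands at 904 CPM with 0 UMIs and 162 CPM with at least 20, while Bcas1 stands at 315 and 2635 CPM.

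Against the 33 vancomycin cells with at least 10 Gpr17 UMIs (317047 UMIs in all), precursor cells had 172 higher genes (7.34%) and 137 lower genes (5.85%) of 2343 measured, a comparison chosen after seeing the data. These are committed cells, of which 3 had fewer than 3 UMIs of Pdgfra, Cspg4 and C1ql1 and are not in the bins above. Ccnd1 had 1620.3 CPM in precursor cells and 196 CPM in these cells. Bmp4 had 10.1 CPM in precursor cells and 410.0 CPM in these cells, and Sox8 182 and 883 CPM. Precursor genes did not all stand higher in precursor cells: Opcml had 825 CPM in precursor cells and 1773 CPM at high Gpr17, and Tnr, which encodes tenascin-R, 741 and 1653 CPM. Of the 33 cells, 9 also had at least 3 UMIs of mature oligodendrocyte markers.

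Within the vancomycin library, precursor cells with Y-linked RNA carried more interferon-induced and MHC class I RNA than precursor cells with Xist RNA. At least 1 UMI of Ddx3y, Uty, Eif2s3y or Kdm5d and no Xist was found in 212 of 570 vancomycin precursor cells (37.2%, interval 33.2 to 41.3), and Xist with none of these in 204 (35.8%, 31.8 to 39.9). Both were found in 13 cells and neither in 141. In the control library 2 of 18 precursor cells had Y-linked RNA, 14 had Xist (77.8%, 52.4 to 93.6), 0 had both and 2 had neither. The cells of 1 sex come from an unknown number of the pooled mice. Sex and individual mouse cannot be told apart, and cells are not replicates, so the values below are a description with no test.

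Of 35 interferon-induced genes 16 were measured, and 15 of them were at least 2-fold higher in the cells with Y-linked RNA. None was lower, and the list's median log2 ratio was 1.53. Over all 2239 measured genes, 62 (2.77%) stood higher by that limit and 8 (0.357%) lower, and the median was -0.08. Iigp1, an interferon-induced GTPase, had 216 CPM with Y-linked RNA and 21.3 CPM with Xist RNA (log2 ratio 2.85). Igtp, another GTPase of this family, had 349.9 and 51.0 CPM (2.56), and Isg15, a ubiquitin-like modifier, 270.0 and 64.7 CPM (1.91). Iigp1, Igtp and Isg15 reached 100 CPM only with Y-linked RNA, so they could pass 2-fold in that direction alone. The sums over all 35 listed genes do not depend on that limit. They were 5485 CPM with Y-linked RNA and 2135 CPM with Xist RNA. Igtp, Isg15, Ifit1, Ifit3, Bst2, Irgm1 and Gbp3, whose promoters are printed above, were among the 15. They are only a part of the 13 genes with the element, and Rsad2, which also has it, was not among the 15. The printed choice therefore does not relate the element to these ratios. The receptors Ifnar1 (28.5 and 31.2 CPM), Ifnar2 (82.2 and 94.4 CPM) and Ifngr1 (55.9 and 67.0 CPM) were too low to be measured, and none of the 3 stood above its level in cells with Xist RNA.

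Of 18 MHC class I genes 14 were measured, and 11 were at least 2-fold higher with Y-linked RNA and 0 lower (median log2 ratio 1.64). They included the class I heavy chain genes H2-K1 (1955 CPM with Y-linked RNA, 595 CPM with Xist RNA) and H2-T23 (546 and 113 CPM), the light chain gene B2m (1655 and 432 CPM) and the immunoproteasome gene Psmb8 (522 and 109 CPM). H2-Q4, H2-Q6 and H2-Q7 and the other class I genes are close copies, so reads may be split between them. The folding factors Calr and Pdia3, which are not interferon-specific, had log2 ratios of -0.05 and 0.09. Per cell, class I RNA had a median of 69.6 UMIs per 10000 (2.61 to 233) with Y-linked RNA and 17.6 (0 to 144) with Xist RNA, and interferon-induced RNA 28.2 (0 to 245) and 12.3 (0 to 135). The ranges overlapped in both lists. With every cell weighted equally, 15 of 16 interferon-induced and 11 of 14 class I genes were again at least 2-fold higher.

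Other groups were closer. The 25 other precursor genes, 15 immediate early genes and 9 cholesterol genes measured here held 0 higher and 0 lower genes. Olig2 had 757 CPM with Y-linked RNA and 990 CPM with Xist RNA, and Lhfpl3 2623 and 2608 CPM. Among single genes ranked by ratio after the values were seen, Tgtp2, a further interferon-induced GTPase, came first with 288 and 26.6 CPM, and the chemokine Ccl5 followed with 381 and 38.1 CPM. Cck, which encodes the peptide cholecystokinin, had the lowest ratio, with 20.5 CPM with Y-linked RNA and 190.3 CPM with Xist RNA. C1ql1, one of the rule's own genes, had 572 and 963 CPM.

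The direction was the same in committed cells and in mature oligodendrocytes of this library. Of the 414 committed cells 407 met the precursor rule apart from its Gpr17 limit, so they are close to the same cells and not a separate check. In committed cells 13 of 15 measured interferon-induced genes and 10 of 14 class I genes were at least 2-fold higher with Y-linked RNA, and in mature oligodendrocytes 11 of 12 and 11 of 13 were, with 0 lower in each. Over all measured genes, 2.52% were higher and 0.18% lower in committed cells, and 3.44% and 0.365% in mature cells. The summed interferon-induced level was 5485 CPM with Y-linked RNA and 2135 CPM with Xist RNA in precursor cells, 4203 and 1509 CPM in committed cells, and 4841 and 1174 CPM in mature cells. In vancomycin astrocytes it was 4778 and 3949 CPM, in T cells 6530.4 and 5664 CPM, and in microglia 6673 and 4361 CPM. The direction was not shared by the control library: its 2 precursor cells with Y-linked RNA summed to 1323 CPM and its 14 with Xist RNA to 6959 CPM. Control microglia, with 200 cells with Y-linked RNA and 422 with Xist RNA, stood at 2597 and 3765 CPM.

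**Figure D3:**
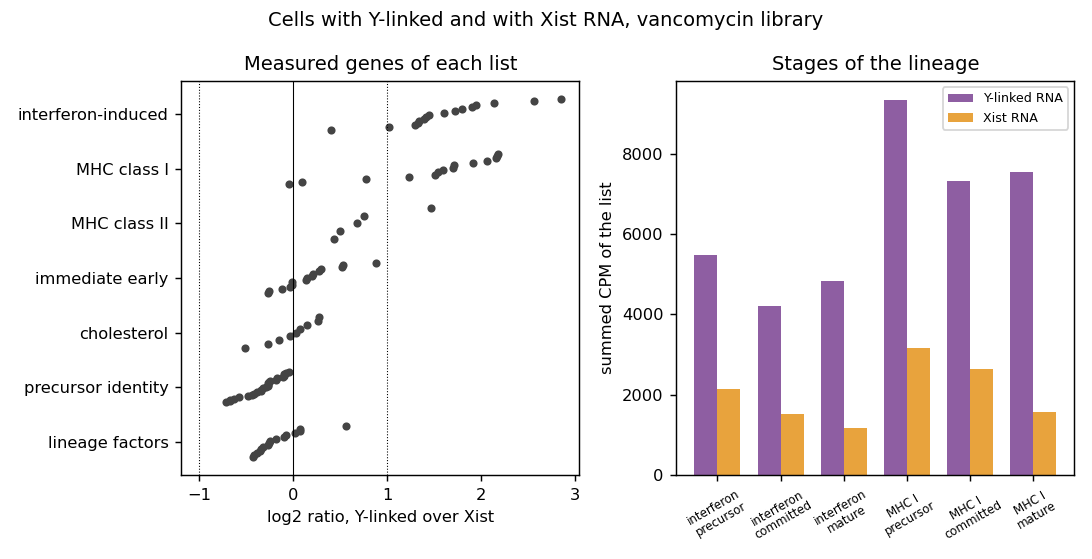
Left, log2 ratio of each measured gene (point) of 7 lists in vancomycin precursor cells, Y-linked RNA over Xist RNA, with dotted lines at 2-fold. Right, summed CPM of the interferon-induced and MHC class I lists in precursor, committed and mature cells with Y-linked RNA and with Xist RNA. All but 1 measured interferon-induced gene lie past 2-fold, no precursor identity gene does, and the bars with Y-linked RNA are taller in all 3 classes.

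MHC class II genes, which present antigen to CD4 T cells, separated the 2 kinds of cell when counted per cell. At least 10 class II UMIs were found in 36.3% of the 212 precursor cells with Y-linked RNA (29.8 to 43.2) and in 7.84% of the 204 with Xist RNA (4.55 to 12.4). Thinned to 2000 UMIs, at least 3 class II UMIs were found in 39.2% and 8.04%, with Y-linked RNA first. In committed cells the share with at least 10 was 27.3% with Y-linked RNA and 3.95% with Xist RNA, at medians of 7527 and 6944 UMIs. T cells of the library reached 13.2% and 8% at medians of 5047 and 4389 UMIs, and mature oligodendrocytes 9.72% and 3.67% at medians of 11228 and 10099 UMIs. Of 3878 T cells, 468 had at least 3 UMIs of macrophage and dendritic cell markers. The precursor share with Xist RNA did not exceed that of T cells with Xist RNA, and the part of free RNA in these shares was not tested. In summed RNA only H2-DMa of 5 measured class II genes passed 2-fold in precursor cells, against 5 of 5 in committed cells and 4 of 4 in mature cells (in precursor cells Cd74 had 1722 CPM with Y-linked RNA and 1273 CPM with Xist RNA). With cells that had at least 3 UMIs of T cell, macrophage, microglial, endothelial or pericyte markers left out, 5 of 5 passed with a median log2 ratio of 3.22, and 178 and 180 cells remained.

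Precursor cells with at least 10 class II UMIs and no such markers were then set against those with at most 2. There were 98 and 351 of them, with 41 in between and 80 left out for other markers. Markers of B and plasma cells were not part of this screen or of the one above that left 178 and 180 cells. Of all 570 vancomycin precursor cells, 203 had at least 3 UMIs of the B and plasma cell list. The cells high in class II RNA are therefore not cleared of that RNA. Median depths were 8615.5 and 5942 UMIs. Of the 98 cells 57 had Y-linked RNA and 6 Xist RNA, and of the 351 cells 96 had Y-linked RNA and 169 Xist RNA. The cut is a range along a count and not a cell type, and class II genes themselves are no finding here.

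The cells high in class II RNA were high in the interferon-induced and class I lists as well: 19 of 20 and 13 of 15 measured genes were at least 2-fold higher, with medians of 2.44 and 2.69 on the log2 scale, where 97 of all 2278 measured genes (4.26%) were higher and 42 (1.84%) lower. Igtp had 582 CPM in cells high in class II RNA and 43.2 CPM in cells low in it, and H2-T23 929 and 66.2 CPM. Igtp and H2-T23 reached 100 CPM in the high cells only, so they could pass 2-fold in that direction alone. Cxcl10, a chemokine that interferon gamma induces and that draws CXCR3-bearing T cells, had 84 UMIs in the high cells and 2 in the low cells (89.2 and 0.960 CPM). Ciita, the activator of class II transcription, had 13 and 3 UMIs, a ratio of 9.58 (2.63 to 52.4). Serpina3n, a protease inhibitor gene of reactive glia, had 926 and 236 CPM.

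Precursor genes outside the rule were present in both. Lhfpl3 had 2478 CPM in the high cells and 2869 CPM in the low cells, Ptprz1 1879 and 2297 CPM, and Sox10 565 and 699 CPM. Of the 25 other precursor genes 0 were higher and 4 at least 2-fold lower, with a median of -0.57, and Neu4 stood at 274 and 679 CPM. RNA of plasma cells moved with the class II RNA: Jchain had 4989 CPM in the high cells and 167 CPM in the low cells, and Igha 817 and 12.0 CPM. The part of free or captured RNA in these values was not tested. Jchain was spread over the classes of this library, with 1786 CPM in all its precursor cells, 5192 CPM in T cells and 146 CPM in astrocytes.

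Between the libraries, immediate early genes, which cells switch on within minutes of stimulation, were lower with vancomycin in precursor cells. Of 28 such genes 23 were measured, 21 were lower by at least 2-fold and 0 higher, and their median log2 ratio was -1.64. Over all 2521 measured genes, 177 (7.02%) stood higher by that limit and 215 (8.53%) lower, around a median of -0.08. TMM moves these ratios by about 0.14, and 227 genes are then higher and 157 lower. Fos, a subunit of the AP-1 factor, had 1804 CPM with vancomycin and 11218 CPM in the control, its partner Jun 922 and 6928 CPM, and the zinc finger factor Egr1 1266 and 9069.9 CPM. The ratios were 0.161 (0.153 to 0.169) for Fos, 0.133 (0.125 to 0.142) for Jun and 0.140 (0.132 to 0.148) for Egr1. Fos, Jun and Egr1 reached 100 CPM in both libraries. At most 15 genes of the list did so in vancomycin precursor cells, and the rest of the 23 could pass 2-fold only as lower. Summed over the list without that limit, the level was 9116 CPM with vancomycin and 43935 CPM in the control.

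The cells of the libraries overlapped in this list. Summed immediate early RNA had a median of 66.8 UMIs per 10000 (0 to 617) in vancomycin cells and 386 (25.8 to 934) in control cells. Of 570 vancomycin cells 96 (16.8%) lay below the lowest control cell and 7 (1.23%) above the control median. That lowest cell was the one with 775 UMIs and no lineage markers. Without it, a comparison added after seeing the data, 367 of 570 (64.4%) lay below the lowest control cell, which had 93.3 UMIs per 10000. In committed cells the summed level was 8165 CPM with vancomycin and 40064 CPM in the control, and in astrocytes 5845 and 26607 CPM. T cells of the same libraries had 8469 and 9491 CPM, and microglia 27877 and 25715 CPM. The 3 neuroglial classes shared the direction, and the sums of T cells and of microglia lay closer together. Handling and dissociation of tissue can switch on these genes, and their part was not tested.

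**Figure D4:**
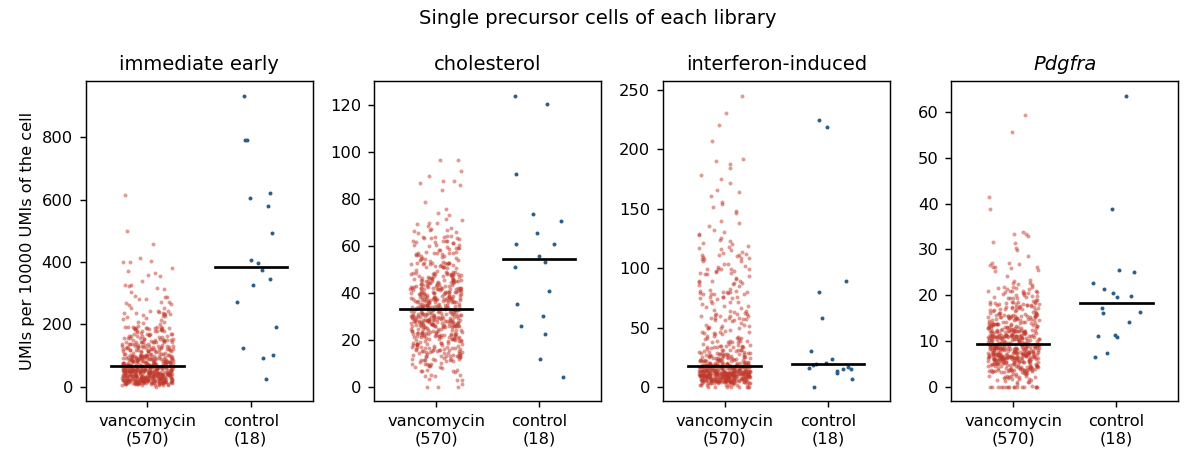
UMIs per 10000 of the cell for 3 gene lists and Pdgfra in each precursor cell (point) of the vancomycin and control libraries, with a bar at the median. Immediate early RNA has medians of 66.8 with vancomycin and 386 in the control, and the points of the 2 libraries overlap in all 4 panels.

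Genes of cholesterol synthesis and uptake, which precursor cells need for membrane, held 8 lower and 0 higher of 16 measured genes of 24. The promoter of Hmgcs1, an early enzyme of the pathway, is printed above. Its RNA stood at 321 CPM with vancomycin and 889 CPM in the control, with a ratio of 0.361 (0.305 to 0.429). The isomerase gene Idi1 had 170 and 577 CPM. Per cell the list had medians of 33.4 UMIs per 10000 (0 to 97.0) with vancomycin and 54.7 (4.27 to 124) in the control. In committed cells the summed level was 3268 CPM with vancomycin and 4773 CPM in the control. In astrocytes the sums were 16949 and 10555 CPM, of which Apoe, also on the list, made up 15629 and 9286 CPM. The astrocyte sums thus mostly describe Apoe and do not show the direction of the synthesis genes.

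Nf1, the gene that both groups have mutated, stood at 79.0 CPM with vancomycin and 69.3 CPM in the control, and its ratio was 1.14 (0.644 to 2.23), below the level at which a gene counted as measured. A 5′ count does not show whether the floxed part of the transcript is present, so it does not check the deletion. Of 14 measured RAS and MAPK genes 4 were at least 2-fold lower and 0 higher: the feedback inhibitor genes Spry1 (286 CPM with vancomycin, 745 CPM in the control) and Spry4 (70.9 and 173 CPM), the RAS GTPase-activating gene Rasa1 (44.3 and 115 CPM) and Egr1, which the immediate early list also holds. Spry4 and Rasa1 reached 100 CPM in the control only, so they could pass 2-fold only as lower. Pdgfra, a gene of the rule, had 963 and 1974 CPM, and 1 control cell held 83 of its 342 control UMIs.

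Interferon-induced genes rested on few control cells. With vancomycin 1 of 16 measured genes was at least 2-fold higher and 7 lower, and the list summed to 4164 CPM with vancomycin and 5762 CPM in the control. Of the control UMIs of the list, 1 cell held 31.6%, and without it the control sum was 4291 CPM and the log2 ratio of the sums -0.04. Medians per cell were 17.2 UMIs per 10000 (0 to 245) with vancomycin and 18.9 (0 to 225) in the control. Class II genes were higher with vancomycin in 4 of 5 measured (Cd74 had 1721 and 139 CPM), and the same control cell held 62.7% of the control class II UMIs. With vancomycin 10 of the 570 cells held 60.9% of the class II UMIs, and the median was 1.46 UMIs per 10000. The H2-Eb1 log2 ratio between libraries was -0.05 with cells that carried other markers, here also those of B and plasma cells, left out. It was -0.34 less the median ratio of the other classes. Cd74 also differed in T cells, which had 2810 CPM with vancomycin and 467 CPM in the control.

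Because 77.8% of control and 35.8% of vancomycin precursor cells had Xist RNA alone, the libraries were also compared within those cells, 204 with vancomycin and 14 in the control, an alternative chosen after seeing the data. Of 2649 measured genes 7.06% were higher and 9.59% lower. Immediate early genes were lower in 23 of 24 measured (median -1.88), and cholesterol genes in 6 of 15 (-0.91). Interferon-induced genes were now lower with vancomycin in 12 of 13 (-1.92), with Iigp1 at 21.3 CPM with vancomycin and 661 CPM in the control. Class I genes were lower in 7 of 13 with a median of -1.05, against 1 higher and 0 lower of 14 with a median of 0.39 in all precursor cells. The control cell with the most interferon-induced UMIs also held 39.1% of the control class I UMIs, and without it the log2 ratio of the class I sums in all precursor cells was 0.98, against 0.39 with it. Without it the cells with Xist RNA gave 2 lower and 0 higher of 11 class I genes (median -0.39), 11 lower of 12 interferon-induced genes (-1.69) and 21 lower of 23 immediate early genes (-1.51). Per cell with Xist RNA, class I RNA had a median of 17.6 UMIs per 10000 with vancomycin and 25.7 in the control, and interferon-induced RNA 12.3 and 21.6.

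Long genes were more often higher with vancomycin. Of measured genes that span over 100 kb on GRCm38, 84 of 428 (19.6%) were at least 2-fold higher, against 4.75%, 2.10% and 1.32% of genes under 10 kb, of 10 to 30 kb and of 30 to 100 kb. The long genes included the adhesion gene Nrxn3 (804 CPM with vancomycin, 127 CPM in the control, span 1612 kb), the synaptic organiser Il1rapl1 (499 and 28.9 CPM, 1375 kb), the neuregulin receptor Erbb4 (349.9 and 57.7 CPM, 1076 kb) and Kcnd2 (858 and 92.4 CPM, 514 kb). All 10 of 25 measured synapse and adhesion genes that passed 2-fold were higher. The share of long genes that were higher was 20.2% in committed cells, 22.1% in astrocytes, 10% in T cells and 8.33% in microglia. The pattern moves with the library and with the Cell Ranger version. The sources used here do not say whether intron reads were counted, and its part was not tested.

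**Figure D5:**
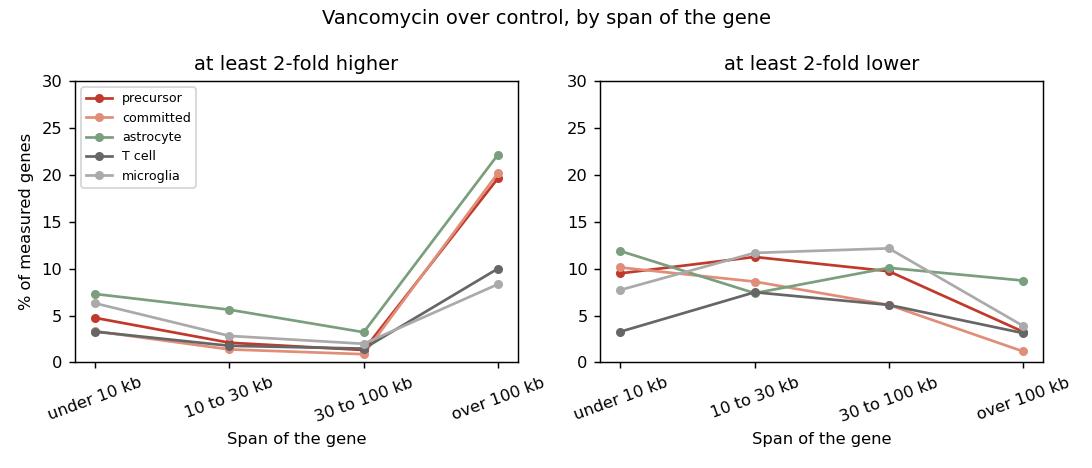
Share of measured genes (%) that were at least 2-fold higher (left) or lower (right) with vancomycin than in the control, by the span of the gene, in 5 classes of cells (lines). Genes over 100 kb reach 19.6% higher in precursor cells, 20.2% in committed cells and 22.1% in astrocytes, against 10% in T cells and 8.33% in microglia.

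Of the other single genes named by ratio, Srgn, Cd52, Ly6c2 and Gpnmb had 0 UMIs in the 18 control cells, and had 120.2, 145, 109 and 113 CPM with vancomycin. Without the Gpr17 limit the log2 ratio of Gpnmb was -0.52, at 129 CPM with vancomycin and 189 CPM in the control. Srgn and Cd52 are genes of blood-derived cells. At least 10 T cell marker UMIs were found in 28 vancomycin precursor cells and in 0 control cells, and all 28 also had Lhfpl3 and Ptprz1. The lineage factors, growth factor receptors and ligands held 0, 1 and 1 higher genes and 2, 0 and 0 lower genes of 17, 7 and 3 measured. Over all 2521 measured genes 7.02% were higher and 8.53% lower, and counts this small do not set the lists apart from that. The lower factors were Zfp36l1 (364 CPM with vancomycin, 889 CPM in the control) and Sox2 (46.7 and 110 CPM). Sox2 reached 100 CPM in the control only, so it could pass 2-fold only as lower. Olig1 (3711 and 3487 CPM), Olig2 (851 and 762 CPM) and Sox10 (597 and 618 CPM) had intervals of the ratio that included 1.

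Cells with cell cycle RNA, called dividing below from at least 10 UMIs, were found in both libraries. Mki67 was detected in 26 of 570 vancomycin cells (4.56%), Top2a in 37 and Cdk1 in 25. In the control each of these genes was detected in 1 of 18 cells. At least 10 UMIs of a list of 38 cell cycle genes were present in 47 vancomycin precursor cells (8.25%, 6.12 to 10.8) and in 2 of 18 control cells (11.1%, 1.38 to 34.7). Before depth was matched, at least 3 such UMIs were present in 29.3% of vancomycin cells (25.6 to 33.2) and 66.7% of control cells (41.0 to 86.7). Thinned to 2000 UMIs the shares were 8.88% (6.64 to 11.6, 18 cells left out) and 11.8% (1.46 to 36.4, 1 cell left out), so a difference was not detectable at this depth. T cells thinned alike gave 12.2% and 17.2%, and 1 control cell held 72.7% of the control cell cycle UMIs of precursor cells.

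Among vancomycin precursor cells without at least 10 UMIs of other cells' markers, 37 with at least 10 cell cycle UMIs were set against 389 with at most 2. Of 2355 measured genes other than those of the cell cycle, 4.71% were at least 2-fold higher and 1.95% lower. Neu4 had 186 CPM in dividing cells and 626 CPM in the others, and Bcas1 had a log2 ratio of -1.06. In the list of the committed stage, which holds these genes, 2 of 7 measured were lower by at least 2-fold and 0 higher. Neu4 is also on the list of other precursor genes. Ccnd1 (1609 and 1752 CPM) stayed within 2-fold. Committed cells of this library also included dividing cells, with at least 10 cell cycle UMIs in 33 of 414 (7.97%). Of these 414 cells 407 met the precursor rule apart from its Gpr17 limit. Of the 25 other precursor genes 0 were higher and 2 lower, Neu4 and Tmem100. Of 5 measured class II genes 4 were higher (median 1.62), and 1 dividing cell held 62.4% of the class II UMIs of the 37. Of 15 class I genes 2 were higher. Median depths were 9758 UMIs in dividing cells and 5942 in the others, and 22 of all 47 dividing cells had at least 3 UMIs of another cell's marker list.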

How the data were processed

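The deposited values are whole-number UMI counts, 1 for each gene in each barcode. Per the file headers, version 7.2.0 of Cell Ranger made the vancomycin counts and version 6.0.1 the control counts. The submitters' processing notes name mm10 and Partek. The 2 libraries hold 32285 genes, of which 32235 (99.85%) were placed on GENCODE M21.

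From these counts, cells were filtered and classed by UMI limits, and UMIs were summed per class and library into CPM. With 1 library per group no test was possible. Exact conditional Poisson intervals were given for ratios and exact Clopper-Pearson intervals for shares, at 95%, and they cover counting error only. Genes needed at least 50 UMIs and 100 CPM in the higher class, and log2 ratios were taken after adding 10 CPM. Depth was matched by thinning cells to 2000 UMIs. Doublets were scored with Scrublet (above 0.2 in 30 vancomycin members and 0 control members) and kept in the main values. Python 3.11.15, scipy 1.17.1, scanpy 1.11.5, edgeR 4.0.16 and DESeq2 1.42.0 were used, the last pair for scaling factors only. Counts simulated from the real means gave back 99.5% of 200 changed genes. This checks the calculation only, and says nothing about spread between mice or libraries, which 1 library per group cannot show.

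Between libraries, the named genes are the 10 highest and 10 lowest ratios whose interval leaves out 1, ranked after subtracting the median of T cells, microglia and fibroblasts. Against other classes they are the 8 highest and 8 lowest ratios, and against all other cells the 20 highest. Each gene list adds its 4 highest members and 2 largest ratios. Ribosomal, mitochondrial, haemoglobin, immunoglobulin, T cell receptor and predicted genes and markers of other cells were left out of this ranking. Other genes were named after their values were seen, among them all comparisons by Y-linked and Xist RNA, by class II RNA and by cell cycle RNA. Members and gene lists were chosen with earlier results of these data known. Alternatives were another scaling, pseudocount, filter, rule limit, doublet treatment, depth and gene span. Values of some genes are not reported here.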

Additional observations from a re-analysis of the deposited data

How the results depend on the processing

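With 1 library per group no replicate could be left out. No paired analysis was possible because each group is 1 library. Alternatives with other markers left out, without the Gpr17 limit, at most 30 kb, with at least 10 Gpr17 UMIs, with Xist RNA alone or without 1 control cell were chosen after seeing the data. Other markers in this section include those of B and plasma cells. The share of precursor cells among kept cells, vancomycin, 3.62%, became 2.18% with members with other markers left out, 4.85% without mature oligodendrocytes in the total, 6.21% without the Gpr17 limit and 4.76% thinned to 2000 UMIs. The share of precursor cells among kept cells, control, 0.438%, became 1.19% in each of the last pair of settings. Of genes at least 2-fold between libraries in precursor cells, higher, 177, there were 1163 with no filter, 369 thinned, 105 less the median of other classes and 84 at most 30 kb. Of genes at least 2-fold between libraries in precursor cells, lower, 215, there were 96 with a pseudocount of 50 CPM, 634 with no filter, 387 thinned, and 143 both at most 30 kb and without the Gpr17 limit. For genes at least 2-fold between precursor cells and committed progenitors, higher, 13 became 36 with no filter, 20 with Scrublet scores above 0.2 left out and 172 at 10 Gpr17 UMIs. For genes at least 2-fold between precursor cells and committed progenitors, lower, 12 became 31, 6 and 137 in those settings. For genes at least 2-fold between precursor cells and mature oligodendrocytes, higher, 568 became 2229 with no filter. For genes at least 2-fold between precursor cells and mature oligodendrocytes, lower, 531 became 799 with TMM, 805 with DESeq2 size factors and 915 with no filter. For genes at least 2-fold between precursor cells and astrocytes, higher, 434 became 1293 with no filter, and for genes at least 2-fold between precursor cells and astrocytes, lower, 377 became 1428. The share of cycling cells among precursor cells, vancomycin, 29.3%, became 46.5% at 2 UMIs, 15.4% at 5, 8.88% thinned and 25.1% with other markers left out. The share of cycling cells among precursor cells, control, 66.7%, became 27.8% at 5 UMIs and 11.8% thinned. The Dnajb4 log2 ratio between libraries reversed to 1.05 thinned, and the Gpnmb log2 ratio between libraries to -0.52 without the Gpr17 limit. Less the median of other classes, the Grik3 log2 ratio between libraries reversed to -2.45, the H2-Eb1 log2 ratio between libraries to -0.34, the Mbp log2 ratio between libraries to -0.016 and the Xist log2 ratio between libraries to 0.65. The H2-Eb1 log2 ratio between libraries was -0.052 with other markers left out. The cause of these moves was not tested, apart from settings that test other genes or cells by construction. TMM moved the log2 ratios between libraries by about 0.14, and DESeq2 size factors by 0.12. The other 83 summary values kept their place, and of the single genes 1957 values stayed and 374 moved without reversing. The 18 control cells limit every comparison between libraries.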

Other observations

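Class II RNA in microglia, the resident immune cells of the nerve, differed in direction between the libraries. In vancomycin microglia the summed class II level was 64870 CPM with Y-linked RNA and 32447 CPM with Xist RNA. In control microglia it was 13430 CPM with Y-linked RNA and 32294 CPM with Xist RNA. The difference between these contrasts was not tested, since each rests on the mice pooled in 1 library.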
